A study of Mus musculus with 4 samples.

Results

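The genes described here encode 4 families of RNA-binding proteins that set splicing and messenger RNA stability in neural cells: Elavl1, Elavl2, Elavl3 and Elavl4, Rbfox2 and Rbfox3, Nova1 and Nova2, and Ptbp1 and Ptbp2. They were chosen by symbol, through the mouse Ensembl identifiers of the deposited table, and all 10 were found among its 55573 genes. The choice was made with earlier results of these data known, so comparisons of the 10 with all tested genes are descriptions and not tests. All 10 passed the filter on low counts and were tested. RNA was sequenced from SmoWT cells, which are mouse medulloblastoma cells of the SHH (Sonic Hedgehog) subtype grown as neurospheres. Both groups carry the genotype Ptch1+/-, Trp53-/- on a C57BL/6 background and derive from spontaneous tumours, and the labels do not say how many tumours or clones they represent. The control group received DMSO and the treated group GDC0449 at 0.1 µM (also called vismodegib, which blocks Smoothened, the transducer of Hedgehog signals), each for 24 h and with 2 libraries. Nothing in the labels tells whether those 2 libraries came from separate cultures, so the p-values describe the spread between libraries, which may be technical.

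These families take part in a switch of RNA processing that accompanies neuronal differentiation. PTBP1 is made in most dividing cells, where it represses neuronal exons, including one of Ptbp2 itself, and PTBP2 takes its place in newborn neurons before it declines as they mature. ELAVL1 (HuR) is made in nearly all cells, whereas ELAVL2, ELAVL3 and ELAVL4 (HuB, HuC and HuD) are neuronal, and all bind U-rich elements that stabilise transcripts or steer their splicing. NOVA proteins bind YCAY clusters and RBFOX proteins bind UGCAUG, each moving exon choice in neurons. RBFOX3 is the NeuN antigen of maturing neurons. Granule neuron progenitors, the cells this tumour resembles, pass through this switch when they leave the cell cycle.

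Transcripts of the neuronal Elavl and Nova genes were higher after GDC0449, Elavl4 and Nova2 by the most. Elavl4 rose 2.34-fold and Nova2 1.67-fold, and no other of the 10 genes passed both thresholds used for a call, an adjusted p under 0.05 and a change over 1.5-fold. By that rule 2 of 10 rose and 0 fell, where 8.68% of the 15472 tested genes rose and 3.85% fell. By adjusted p alone 7 of 10 were higher and 0 lower, where 36.1% of tested genes passed, 18.1% higher and 18.1% lower. The 7 were Elavl2, Elavl3, Elavl4, Nova1, Nova2, Rbfox2 and Ptbp2. The ubiquitous Elavl1 did not pass, nor did Ptbp1 or Rbfox3. At an unadjusted p under 0.05 edgeR put 1 of the 10 lower, Elavl1, and DESeq2 and limma-voom each called 0 lower. The share of all tested genes at that unadjusted p was not counted. The median log2 fold change of the 10 was 0.30, against 0.01 over all tested genes. Among the 4817 tested genes with a mean level in the range of these 10, that median was -0.07, and 3.63% of them rose and 3.16% fell. By adjusted p alone 16.5% of that range were higher and 30.8% lower.

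**Figure D1:**
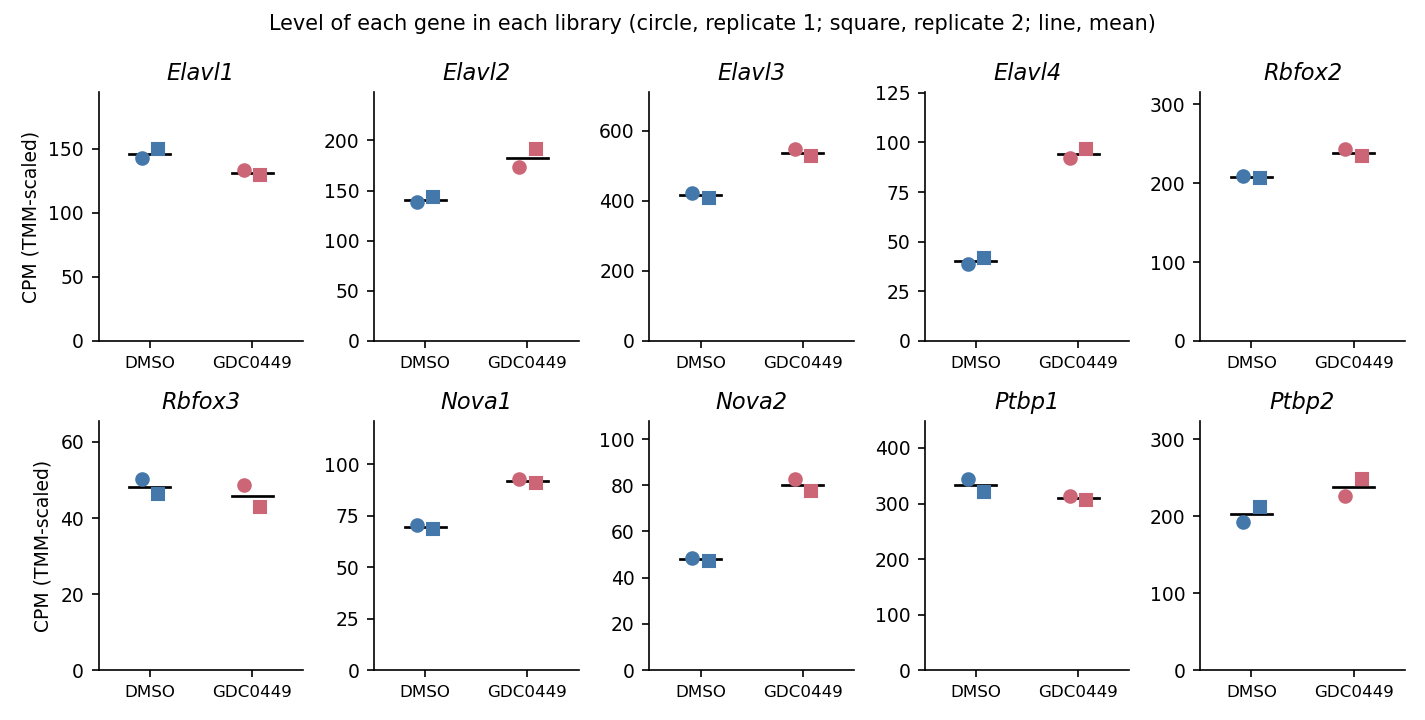
Level of each gene in each library, in CPM scaled by TMM (y axis, from 0), for DMSO (blue) and GDC0449 (red); circles are replicate 1, squares replicate 2 and lines the mean. For 7 genes both treated libraries lie above both controls, for Elavl1 and Ptbp1 both lie below, and for Rbfox3 they overlap.

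The libraries differed by group in the reads that fell in no gene (12.3% and 13.2% in DMSO, 14.3% and 14.4% in GDC0449) and in the genes with a read (22685 and 22309 in DMSO, 23821 and 23780 in GDC0449), and the part of this in the results was not tested. They held 16329721 to 20790030 reads in genes, so the 10 genes were each counted with 670 to 11524 reads per library. Levels below are CPM, a gene's reads divided by the library total and brought to a common scale by TMM factors, and all fold changes and adjusted p-values are from edgeR's quasi-likelihood test with Benjamini-Hochberg adjustment over all tested genes. The cells carried the defining marker of granule neuron progenitors, with Atoh1 at 55.3 to 58.2 CPM in DMSO, while Barhl1, another marker of that lineage, had only 4 to 10 reads in each library. Gabra6, a marker of fully mature granule neurons, had 0 reads in every library, and so had 6 of 8 listed markers of GABAergic and Purkinje neurons, among them Gad1 and Gad2. In bulk RNA, more cells of a type and more RNA per cell cannot be told apart.

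The neuronal Elavl genes come first, since they had the widest range of differences. Elavl4 (ENSMUSG00000028546, chromosome 4, 110203722 to 110351909, minus strand) encodes HuD. It was at 39.0 and 41.6 CPM in the DMSO libraries and 92.1 and 96.5 CPM in the GDC0449 libraries. Both treated libraries thus stood well above both controls, with no overlap. Its log2 fold change was 1.23 with a standard error of 0.08, and the 95% interval of the fold change ran from 2.11 to 2.60 (adjusted p = 8.38e-20). Of all tested genes 97.0% had a lower log2 fold change. In other fits the log2 fold change of Elavl4 ran from 1.13 to 1.27. Its adjusted p was 0.00408 with edgeR without a filter on low counts and 0.00940 with limma on log2(FPKM + 1). The call held in each of 12 alternative fits.

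Elavl3 (ENSMUSG00000003410, chromosome 9, 22015005 to 22052023, minus strand), which encodes HuC, was the most abundant of the 10 by read count. It was at 424 and 409 CPM in DMSO and 547 and 527 CPM in GDC0449. The groups did not overlap, and the fold difference was smaller than that of Elavl4, at 1.29-fold with an interval of 1.19 to 1.40 (adjusted p = 9.64e-07). Elavl2 (ENSMUSG00000008489, chromosome 4, 91250763 to 91400785, minus strand), which encodes HuB, was at 138 and 144 CPM in DMSO and 174 and 191 CPM in GDC0449. Again both treated libraries were above both controls, by 1.29-fold with an interval of 1.18 to 1.42 (adjusted p = 6.03e-06). Leaving out DMSO replicate 1 or DMSO replicate 2 took its adjusted p to 0.0747 and 0.0666. On log2(FPKM + 1), tested with limma, neither passed, with an adjusted p of 0.0919 for Elavl3 and 0.201 for Elavl2. The interval of Elavl4 lay wholly above those of Elavl2 and Elavl3, and the difference between the genes was not itself tested.

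Elavl1 (ENSMUSG00000040028, chromosome 8, 4285382 to 4325413, minus strand), the ubiquitous member, went the other way without passing the test. Its levels were 143 and 149 CPM in DMSO and 133 and 129 CPM in GDC0449. Both treated libraries were below both controls by a small margin. The log2 fold change was -0.15 with an interval of -0.28 to -0.02 (adjusted p = 0.0569). With relative log expression scaling the adjusted p was 0.0477, and over the 12 alternative fits it ran from 0.00213 to 0.337, under 0.05 in 2 of them.

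The promoters of the 2 genes that rose show the sequence upstream of their starts, as the windows where a shared motif would be visible. The set of RefSeq promoters used here (build GRCm38.p6) holds 9 of the 10 genes and lacks Rbfox2. It gives 4 alternative starts for Elavl4 and 1 for Nova2, and the counts do not tell which Elavl4 start was used. The 250 bases before a start were searched on both strands for CAGCTG and CAGATG, 2 forms of the E-box bound by basic helix-loop-helix factors, and for GACCACCCA, the consensus of Gli factors. Capitals mark matches in the window chr4:110287528-110287777 (minus strand) of Elavl4 and the window chr7:18925638-18925887 (plus strand) of Nova2, each written 5′ to 3′.
Elavl4: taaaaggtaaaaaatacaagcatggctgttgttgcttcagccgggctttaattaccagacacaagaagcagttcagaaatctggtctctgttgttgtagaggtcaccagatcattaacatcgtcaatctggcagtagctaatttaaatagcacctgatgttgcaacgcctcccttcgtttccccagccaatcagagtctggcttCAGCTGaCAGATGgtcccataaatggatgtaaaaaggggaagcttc
Nova2: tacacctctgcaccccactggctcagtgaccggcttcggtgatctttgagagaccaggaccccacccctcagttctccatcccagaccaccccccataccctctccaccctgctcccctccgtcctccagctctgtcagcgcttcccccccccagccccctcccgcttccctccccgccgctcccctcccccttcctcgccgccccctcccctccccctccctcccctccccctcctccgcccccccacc
The Elavl4 window holds 1 CAGCTG and, next to it, 1 CAGATG; the Nova2 window holds none of the 3 motifs. Of the 4 Elavl4 windows, 2 that overlap each other, the printed one among them, hold the same CAGCTG and the same CAGATG. With another window that does not overlap them, 3 hold CAGATG, of which 2 share 1 site. The printed window is thus 1 of those with matches. The window next to the annotated start of the gene, chr4:110351912-110352161, holds none of the 3 motifs. Elavl3 and Nova1 hold 1 CAGCTG each in their single windows, and Ptbp1 holds 1 CAGATG. Over all 32851 RefSeq promoter windows of that length, 13.0% hold CAGCTG, 14.4% CAGATG and 0.225% GACCACCCA, and no window of the 9 genes holds the last. Those shares are per window, so a gene with 4 windows had more room for a match than a gene with 1. The matches are of letters only, and binding was not measured.

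Both Nova genes were higher in GDC0449, Nova2 by more than Nova1. Nova2 (ENSMUSG00000030411, chromosome 7, 18925888 to 18965319, plus strand) encodes the NOVA protein that predominates in the cortex. It was at 48.7 and 47.4 CPM in DMSO and 82.8 and 77.7 CPM in GDC0449. The 2 control libraries lay close together and well below both treated ones. Its log2 fold change was 0.74 with a standard error of 0.08 (adjusted p = 7.03e-12), and its fold interval ran from 1.50 to 1.85. In other fits the log2 fold change of Nova2 ran from 0.64 to 0.78. Its adjusted p was 0.0106 with edgeR without a filter on low counts and 0.00947 with limma on log2(FPKM + 1). Its call also held in each of 12 alternative fits. On the opposite strand, Gm26821 shares 31.7% of the Nova2 exon bases, and had 0 reads in these libraries. Whether the reads were counted by strand is not given in the sources used here, and without strand reads in shared bases cannot be assigned to either gene, so the Nova2 count is uncertain to that extent.

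Nova1 (ENSMUSG00000021047, chromosome 12, 46694517 to 46818929, minus strand), whose protein is best known from the hindbrain and spinal cord, was at 70.7 and 68.5 CPM in DMSO. In GDC0449 it was at 93.0 and 91.0 CPM. Replicates differed by under 3 CPM in each group and the groups did not overlap. The difference was 1.32-fold, with an interval of 1.20 to 1.46 (adjusted p = 6.89e-06). It lay under the fold threshold and kept an adjusted p under 0.05 in each of the 12 alternative fits, the highest being 0.0483 without DMSO replicate 2.

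The Ptbp pair showed a small difference in Ptbp2 and none that passed in Ptbp1. Ptbp2 (ENSMUSG00000028134, chromosome 3, 119718742 to 119784466, minus strand) was at 192 and 212 CPM in DMSO and 227 and 249 CPM in GDC0449. The groups did not overlap, although the replicates of each group differed by more than the gap between the groups. Its difference was 1.18-fold, with an interval of 1.07 to 1.29 (adjusted p = 0.00309). The adjusted p was 0.241 without DMSO replicate 1, 0.0971 without DMSO replicate 2 and 0.215 without GDC0449 replicate 2, 0.147 without a filter on low counts and 0.091 on log2(FPKM + 1). Ptbp1 (ENSMUSG00000006498, chromosome 10, 79854427 to 79864771, plus strand), the repressor of neuronal exons, was at 345 and 320 CPM in DMSO and 313 and 307 CPM in GDC0449. Both treated libraries were below both controls, yet the log2 fold change of -0.10 had an interval of -0.22 to 0.02 and did not pass (adjusted p = 0.197). Over the 12 alternative fits its adjusted p ran from 0.0222 to 0.541, under 0.05 in 1. Genes on the opposite strand, of which Plppr3 had the most reads, share 20.7% of the Ptbp1 exon bases, so its count, like that of Nova2, is less certain than those of genes with little or no overlap. Gene counts do not show whether the Ptbp2 exon that PTBP1 represses was included.

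Neither Rbfox gene reached the fold threshold on counts. Rbfox2 (ENSMUSG00000033565, chromosome 15, 77078990 to 77307004, minus strand), the family member that is widely expressed, was at 209 and 207 CPM in DMSO and 243 and 235 CPM in GDC0449. The groups did not overlap, and the difference was 1.15-fold with an interval of 1.06 to 1.25 (adjusted p = 0.00763). The gene no longer passed when any 1 library was left out, at 0.0904 and 0.115 without DMSO replicates 1 and 2 and 0.180 and 0.0692 without GDC0449 replicates 1 and 2. Nor did it pass without a filter on low counts (0.0833). On log2(FPKM + 1) its difference was larger, at 0.63 and past 1.5-fold, but the DMSO libraries were far apart on that scale and the adjusted p was 0.141. Rbfox3 (ENSMUSG00000025576, chromosome 11, 118489762 to 118911597, minus strand) was at 50.3 and 46.2 CPM in DMSO and 48.6 and 42.9 CPM in GDC0449. The groups overlapped. Its log2 fold change was -0.08, with an interval of -0.24 to 0.09 (adjusted p = 0.489), which leaves out a rise as large as that of Nova1. The sign turned to 0.07 on log2(FPKM + 1), and the value was 0.00 without GDC0449 replicate 2.

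**Figure D2:**
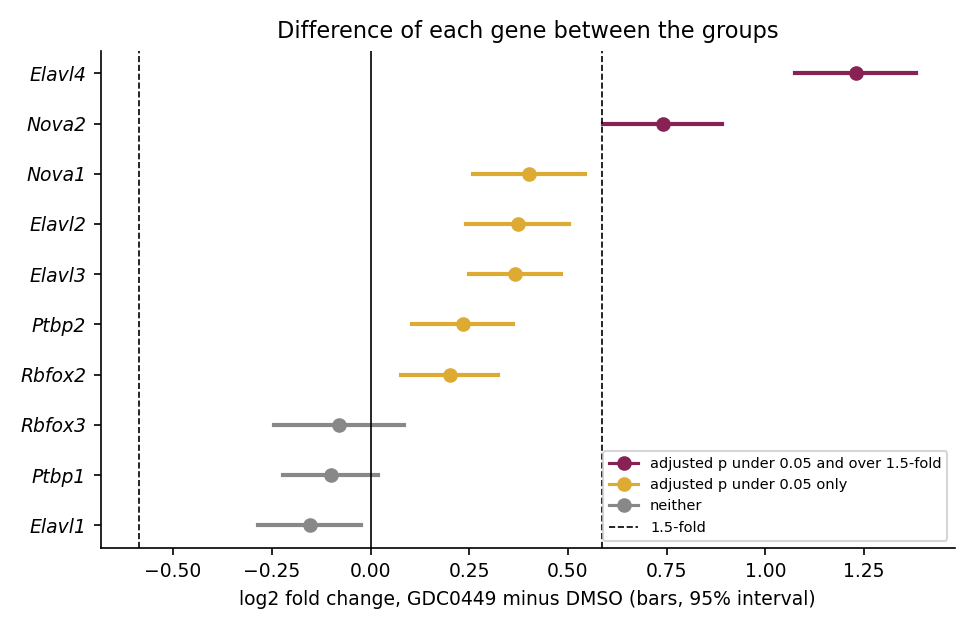
Log2 fold change of each gene, GDC0449 minus DMSO (x axis), with the 95% interval from edgeR as a bar; purple genes passed both thresholds, yellow genes the adjusted p only and grey genes neither, and dashed lines mark 1.5-fold. Elavl4 at 1.23 and Nova2 at 0.74 lie beyond the right dashed line, and Elavl1 at -0.15 is the lowest.

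Of the 10 genes, libraries of the 2 groups did not overlap for 9, 7 higher and 2 lower in GDC0449. Over all tested genes this held for 33.6% in the higher and 32.2% in the lower direction. All 10 were among the better expressed genes of these cells. Rbfox3 had a mean level above 67.2% of tested genes, and Elavl3 above 98.4%.

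**Figure D3:**
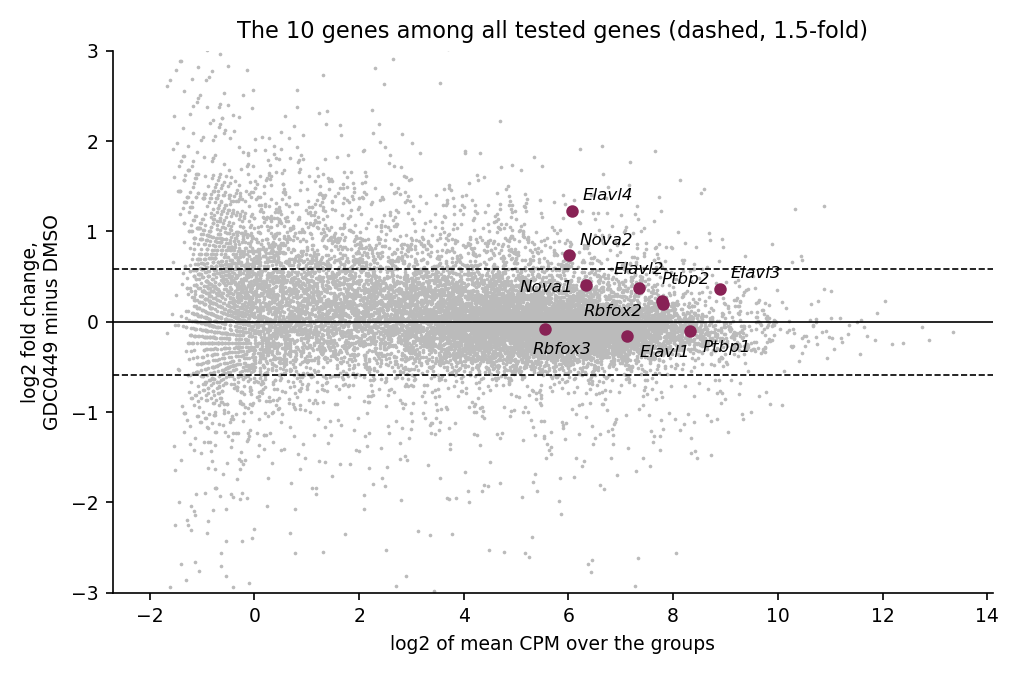
Log2 fold change (y axis, GDC0449 minus DMSO) against the log2 of the mean CPM (x axis) for all tested genes in grey and the 10 genes in purple, with dashed lines at 1.5-fold; 42 genes lie outside the plotted range of 3 in either direction. Elavl4 and Nova2 stand above the upper line, and the other 8 lie inside the band.

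Levels of different genes can be set side by side only per length. CPM divided by the kilobases of annotated exon put Ptbp1 first in DMSO, at 70.1 ± 3.64 CPM per kilobase (SD, n = 2), followed by Elavl3 at 60.5 ± 1.47. Rbfox2, Ptbp2, Elavl2 and Elavl1 followed at 25.5, 22.0, 17.0 and 14.1 CPM per kilobase. Rbfox3, Nova1, Elavl4 and Nova2 came last, at 8.30, 7.95, 7.48 and 5.74 CPM per kilobase. The values of Rbfox3 and Nova1 overlapped between libraries, and no other neighbours in this order did. In GDC0449 Elavl3 stood above Ptbp1, at 77.9 ± 1.99 against 65.4 ± 0.884 CPM per kilobase. Elavl4 moved from below Elavl1 to above it, at 17.5 ± 0.570 against 12.7 ± 0.279.

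The deposited FPKM values gave the same first and second genes in DMSO but a different distance between them. On that scale Ptbp1 was at 132 ± 5.53 FPKM and Elavl3 at 58.0 ± 4.40 FPKM in DMSO, and Ptbp1 stayed above Elavl3 in GDC0449, at 123 against 73.9 FPKM. Elavl4 was at 14.3 FPKM and Elavl1 at 14.7 FPKM in GDC0449, so the order of those 2 was also not the same as per kilobase of exon. For Ptbp1 and Ptbp2 the mean FPKM in DMSO was 1.88 and 2.15 times the CPM per kilobase. Rbfox2 showed how the FPKM values scatter, with 14.4 and 25.1 FPKM in the 2 DMSO libraries where its CPM were nearly equal.

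Ratios within a library describe the balance between paralogs, with length divided out. The ratio of Ptbp2 to Ptbp1 was 0.288 and 0.343 in DMSO and 0.374 and 0.418 in GDC0449, from CPM per kilobase. Ptbp1 thus remained the more abundant in all 4 libraries, and the ratio was higher in both treated ones. On FPKM the ratio was 0.349 and 0.371 in DMSO and 0.432 and 0.513 in GDC0449. With 2 libraries in each group the smallest two-sided p an exact permutation test can give is 0.333, so these ratios were described and not tested.

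The 3 neuronal Elavl genes together outweighed Elavl1 in all libraries. Their sum was 6.20 and 5.86 times the Elavl1 level in DMSO and 9.13 and 9.42 times in GDC0449, from CPM per kilobase, and 4.93 and 4.25 against 7.75 and 6.63 on FPKM. Within that sum Elavl4 made up 8.48% and 9.14% in DMSO and 14.6% and 15.3% in GDC0449. Elavl3 kept the largest share, at 72.0% and 70.4% in DMSO and 67.6% and 65.2% in GDC0449. The Nova2 to Nova1 ratio was 0.720 and 0.723 in DMSO and 0.931 and 0.892 in GDC0449, but on FPKM the groups overlapped. The Rbfox3 to Rbfox2 ratio went the other way, from 0.337 and 0.313 in DMSO to 0.280 and 0.256 in GDC0449, and on FPKM from 0.373 and 0.507 to 0.304 and 0.282. Transcripts of Rbfox3, the more neuronal of that pair, were thus fewer relative to Rbfox2 in both treated libraries on either scale. On counts the ratio moved more through Rbfox2, with a log2 fold change of 0.20, than through Rbfox3, whose -0.08 did not pass. On FPKM the Rbfox2 values scattered between the DMSO libraries.

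**Figure D4:**
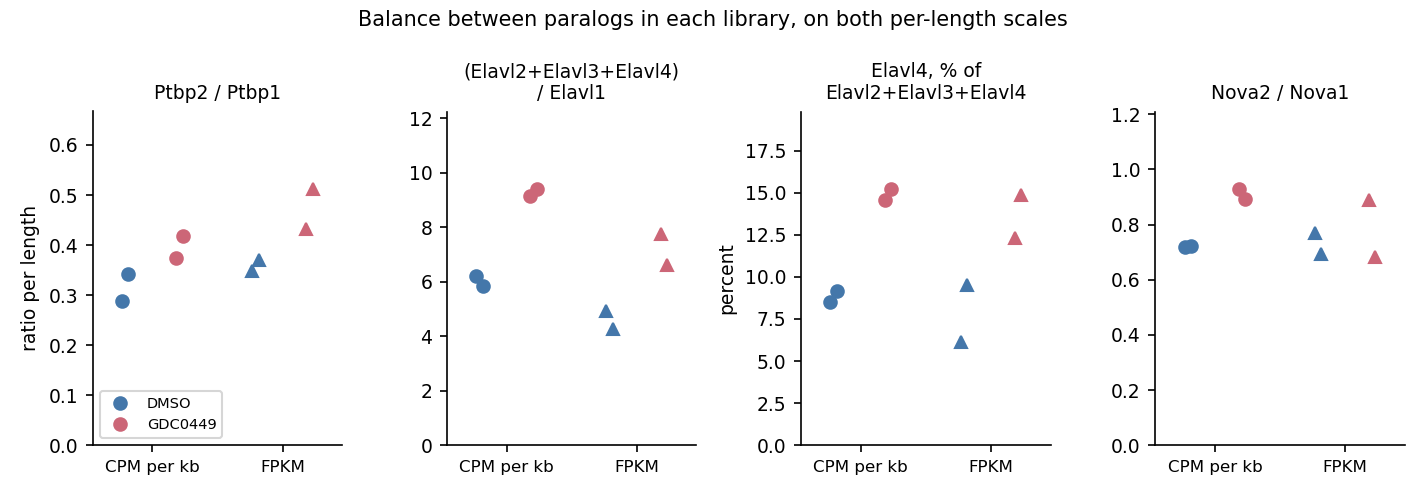
Balance between paralogs in each library (y axes, ratio or percent), from CPM per kilobase of exon (circles) and from deposited FPKM (triangles), for DMSO in blue and GDC0449 in red. Treated libraries lie above controls on both scales for the first 3 panels, such as 0.374 and 0.418 against 0.288 and 0.343 for Ptbp2 over Ptbp1; for Nova2 over Nova1 they overlap on FPKM.

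Markers of cell state moved alongside these genes. Over all tested genes 8.68% rose and 3.85% fell, and 18.1% were higher and 18.1% lower by adjusted p alone. Of 13 tested markers of postmitotic granule neurons 9 rose and 0 fell, and their summed level went from 1806 to 1811 CPM across the DMSO libraries to 3024 to 3060 CPM across the GDC0449 libraries. The log2 fold changes of the 13 ran from 0.15 (Gap43) to 1.57 (Cntn2), with a median of 0.83. Dcx, a microtubule protein of migrating neurons, was at 1.20. Map2, Nhlh1, Nhlh2 and Gap43 were not called. Of 6 tested markers of granule neuron progenitors 3 rose and 0 fell, and their sum was 890 to 895 CPM in DMSO and 1104 to 1194 CPM in GDC0449. Atoh1 itself, the factor that defines these progenitors, had a log2 fold change of 0.81. By adjusted p alone with edgeR 5 of them were higher (Atoh1, Meis1, Mfap4, Zic1 and Zic2). By that rule 1 was lower, Pax6 (-0.19, adjusted p = 0.0450), and Barhl1 was not tested. Of 7 markers of cycling cells 0 were called with edgeR, DESeq2 or limma-voom. By adjusted p alone 5 were lower (Cdk1, Mcm2, Mcm5, Pcna and Top2a). At an unadjusted p under 0.05 the number was also 5, and the share of all tested genes at that p was not counted. The sum was 2893 to 2987 CPM in DMSO and 2594 to 2611 CPM in GDC0449. Mki67, a protein of dividing cells, had a log2 fold change of -0.06. Glial markers summed to 198 to 216 CPM in DMSO and 280 to 285 CPM in GDC0449, with 1 of 6 higher (the glutamate transporter Slc1a2) and 1 lower (Sox9) and with Aqp4 and Aldh1l1 at 0 reads. Oligodendrocyte markers summed to 69.5 to 70.3 and 84.1 to 85.8 CPM, with 0 of 5 called by any of those tools, 1 higher by adjusted p alone (Mbp, log2 fold change 0.41, adjusted p = 1.22e-05 with edgeR) and Olig1 at 0 reads. Markers of GABAergic and Purkinje neurons summed to 75.3 to 75.6 and 143 to 146 CPM, nearly all of it Lhx1, which was 1 of 2 tested and rose. Microglial markers summed to 4.68 to 6.33 and 2.18 to 2.65 CPM, with 2 of 3 lower (Lyz2 and Tyrobp) by edgeR and limma-voom and 1 by DESeq2. Fibroblast and vascular markers summed to 2.48 to 2.75 and 2.94 to 3.65 CPM, with 2 of 5 higher (Col3a1 and Pecam1), 1 lower (Pdgfrb) and Cdh5 at 0 reads. DESeq2 called 0 of those 5 in either direction. The part of these shifts in the differences of the RNA-binding protein genes was not tested.

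The list of other splicing regulators, which also holds Rest, a repressor of neuronal genes rather than a splicing factor, went in both directions. Of 31 listed 27 were tested, of which 4 rose and 2 fell, Rest being 1 of those that fell. By adjusted p alone 8 were higher and 7 lower, and the median log2 fold change was 0.07. Over all tested genes 8.68% rose and 3.85% fell, and 18.1% were higher and 18.1% lower by adjusted p alone. Mbnl2, a muscleblind protein that drives exon choice in the maturing brain, fell 2.63-fold, from 194 and 214 CPM in DMSO to 74.0 and 81.5 CPM in GDC0449 (adjusted p = 7.66e-24). Both treated libraries were far below both controls. Rest, the repressor of neuronal genes that also holds down the neuronal splicing factor Srrm4, fell 1.65-fold, from 60.7 and 64.1 CPM to 37.0 and 38.8 CPM (adjusted p = 8.81e-11). On log2(FPKM + 1) its difference was under the fold threshold, at -0.53. Srrm4 itself was at 123 and 127 CPM in DMSO and 158 and 144 CPM in GDC0449, a 1.21-fold difference (adjusted p = 0.000663) that did not reach the fold threshold. It was named after its value was seen.

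The 4 that rose were Rbm24, Raver2, Celf3 and Celf5. Rbm24, a splicing factor best known from muscle, rose 2.65-fold, from 9.62 and 8.45 CPM to 25.1 and 23.0 CPM (adjusted p = 2.26e-14). Raver2, which encodes a PTB-binding partner, rose 2.14-fold, from 6.01 and 6.21 CPM to 12.8 and 13.4 CPM (adjusted p = 1.84e-08), but its adjusted p was 0.0618 on log2(FPKM + 1). Celf3 and Celf5, CUG-binding proteins of the brain, were named after their values were seen and had differences of 1.57-fold and 2.08-fold. Celf3 lost its call without DMSO replicate 2 (adjusted p = 0.0823) and fell under the fold threshold without GDC0449 replicate 1, at 0.54. On log2(FPKM + 1) it was not called either, at 0.50 (adjusted p = 0.112). Celf5 lost its call without DMSO replicates 1 and 2 in turn (0.0854 and 0.103). Without a filter on low counts both were lost (0.0672 and 0.0601). The remaining paralogs of the Rbfox and Ptbp families, named outside the rule, did not pass. Rbfox1 was at 6.40 ± 1.24 and 6.09 ± 0.0388 CPM and Ptbp3 at 106 ± 4.74 and 115 ± 5.43 CPM in DMSO and GDC0449 (SD, n = 2; edgeR adjusted p = 0.742 and 0.185).

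Among the stability and translation, hnRNP and SR lists 1 gene was called. Over all tested genes 8.68% rose and 3.85% fell. By adjusted p alone 18.1% of all tested genes were higher and 18.1% lower. Among tested genes in the level range of the 10 genes those shares were 16.5% and 30.8%. Of 25 tested regulators of messenger RNA stability and translation 0 rose and 1 fell with edgeR, DESeq2 and limma-voom alike, with 4 higher and 7 lower by adjusted p alone and a median of -0.03. The 4 that were higher by that rule, Cpeb2, Msi1, Msi2 and Zfp36l1, were named after their values were seen. The one that fell was Zfp36l2, a promoter of transcript decay, from 20.6 and 20.8 CPM to 11.1 and 13.8 CPM (1.66-fold, adjusted p = 1.29e-06). That call was lost without DMSO replicate 1 or 2, at 0.0673 and 0.0731, and without GDC0449 replicate 1 its log2 fold change of -0.58 was under the fold threshold, as was that of -0.53 on log2(FPKM + 1). Among the 23 hnRNP genes edgeR made 0 calls, as did DESeq2 and limma-voom. At an unadjusted p under 0.05 edgeR put 2 higher and 10 lower, and by adjusted p alone 0 were higher and 8 lower, with a median of -0.04. For the unadjusted counts of the hnRNP and SR genes no share of all tested genes was counted, so they are not read as results. The stricter adjusted p was passed by 36.1% of all tested genes in either direction. Taf15 and Hnrnpf had the smallest p, with log2 fold changes of -0.54 and -0.40. None of the 16 SR protein genes was called by any of those tools, and at an unadjusted p under 0.05 edgeR put 2 higher and 7 lower. By adjusted p alone 1 was higher and 4 lower, with a median of -0.10. The higher one, Srsf12, was named after its value was seen, as were Son and Srsf5, which were lower along with Srsf10 and Srsf4. Srsf10, a repressor of splicing in mitosis, was at 328 and 356 CPM in DMSO and 284 and 291 CPM in GDC0449, and Srsf4 had a log2 fold change of -0.25.

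**Figure D5:**
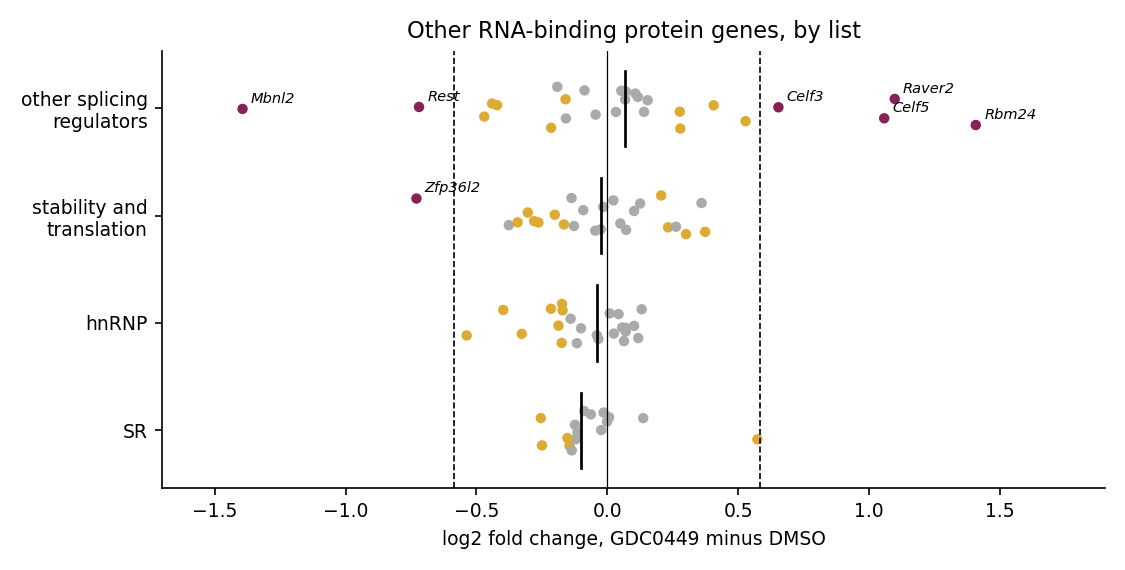
Log2 fold change (x axis, GDC0449 minus DMSO) of every tested gene in the 4 other lists, which hold RNA-binding proteins and Rest. Purple points passed both thresholds, yellow points the adjusted p only and grey points neither. Black bars are list medians and dashed lines mark 1.5-fold. Mbnl2 at -1.39 and Rbm24 at 1.41 are the extremes of the splicing list, and no hnRNP or SR gene lies beyond the lines.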

How the data were processed

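RNA-seq of 4 libraries was used, 2 of DMSO and 2 of GDC0449. The submitters' processing notes name Trim Galore, HISAT2, HTSeq 0.11.1, DESeq2 1.26.0 and the mm10 assembly, without the settings. The deposited table gives raw counts, and beside them FPKM values computed by the authors with a tool not given in the sources used here. Of its genes, 546 have 0 counts and at least 1 FPKM in all 4 libraries, so the FPKM values did not come from the same assignment of reads. Annotation release and strand setting are also not given in those sources.

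From the counts, edgeR 4.0.16 (R 4.3.3) scaled the libraries by TMM, kept genes by filterByExpr's defaults and gave a quasi-likelihood test of group, the model's sole term. The table holds 55573 genes, and another 6 entries that name no gene were left out. Reads in no gene made up 12.3% and 13.2% of all reads in the table in DMSO and 14.3% and 14.4% in GDC0449, ambiguous reads 4.73% to 4.91% and reads of more than 1 alignment 10.4% to 10.7%. Symbols, spans and exon lengths came from GENCODE M21 (GRCm38, the mm10 assembly), which matched 55480 identifiers. Intervals use edgeR's standard error (the log2 fold change over the square root of F) and its degrees of freedom. With 2 libraries in each group, most of those degrees of freedom were borrowed from the spread of all tested genes (a median of 49.9). Small p-values therefore rest mainly on that shared spread. On counts simulated from these libraries with 15208 genes tested, 100% of genes changed 2-fold were recovered, and 2 unchanged genes were called. The changed genes were drawn from well-counted genes only. The simulated spread followed the fit's own trend, without variation of its own for each gene. The simulation therefore checks that the fit runs as meant, and cannot show recovery at low counts or the rate of false calls in these data.

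The 10 genes, the 4 other lists (RNA-binding proteins and Rest) and the markers were chosen with earlier results of these data known. Named genes are the 10, and of each other list up to 4 called genes with the smallest p, or 2 where none was called. Alternatives were other scalings and filters, DESeq2 1.42.0, limma-voom (limma 3.58.1), limma on log2(FPKM + 1) for genes at 1 FPKM in 2 libraries, a replicate block, each library left out and other fold thresholds. With all libraries kept, replicates differed by more than sampling noise (a chi-square per gene of 4.25 for the DMSO pair and 3.42 for the GDC0449 pair).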

Additional observations from a re-analysis of the deposited data

How the results depend on the processing

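The calls of Elavl4 and Nova2 held with other scalings and filters, DESeq2, limma-voom, log2(FPKM + 1), the block and each library left out. Without a fold threshold 7 of the 10 genes were called higher, and at 2-fold 1 was, Elavl4. By adjusted p alone the 7 higher genes became 3 on log2(FPKM + 1) and 4 to 6 with single libraries left out, the lowest without either DMSO replicate. A fit without a control library takes its spread from the GDC0449 pair. Without a filter on low counts 5 of the 10 were higher by adjusted p alone. The share of all tested genes passing by adjusted p alone was counted in the main fit only, so these counts have no share beside them. Of genes lower by adjusted p alone there were 0, but 1 (Elavl1) with relative log expression scaling. Over all genes 1343 rose and 596 fell. Higher calls numbered 746 without a filter, 799 with the filter at 5 CPM, 520 on log2(FPKM + 1), 2794 without a fold threshold, 648 at 2-fold and 500 to 1221 with single libraries left out. Lower calls numbered 366 with the filter at 5 CPM, 350 on log2(FPKM + 1), 2793 without a fold threshold, 312 at 2-fold and 351 to 605 with single libraries left out. The cause of these shifts was not tested.

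The labels give both groups replicate numbers 1 and 2 but no shared source, so the numbers were not taken as pairs. Differences between replicates correlated at 0.214 between the groups, across 10803 genes, which are not independent replicates. With the replicate block 1407 genes rose and 615 fell, and Elavl4 and Nova2 stayed called with 0 of the 10 called lower. By adjusted p alone 7 of the 10 were higher and 2 lower, Elavl1 (0.00213) and Ptbp1 (0.0222). The share of all tested genes passing by adjusted p alone with the block was not counted, so the 2 lower genes cannot be set against it. Each of the 10 genes had at least 670 reads in every library.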
